A study of Mus musculus with 4 samples.

Results

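Accessible chromatin was described around 27 mouse genes of cholesterol synthesis, transport and uptake. The genes were taken from a list fixed by name, and all 27 were found among 21631 protein-coding genes on chromosomes 1 to 19 and X. A region, meaning a peak in a deposited list, belonged to a gene when it overlapped the gene body or the 10 kb flanking it. The data are ATAC-seq, in which the Tn5 transposase cuts and tags open DNA. Cells were untreated and came straight from mice: DN3 thymocytes, sorted as lineage-, CD4-, CD8-, CD44-, CD25+ cells of the thymus, and splenic CD4 T cells purified as naive with magnetic beads. Each was taken from mice deficient in SCD1, the enzyme that puts the double bond into newly made saturated fatty acids, and from littermate controls, which the sample titles mark HZ without explaining it. Each of the 4 groups is a single library. The allele, the age of the mice and their number per library were not given in the sources used here. Without replicates the differences have no replicate check and were not tested, and all intervals cover counting error only.

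Cholesterol is built from acetyl-CoA through mevalonate and isoprenoid diphosphates, which also serve to lipidate proteins. These are joined to squalene, closed into lanosterol and trimmed to cholesterol. Most genes of the route are switched on together by SREBP-2 when sterols run low, and SREBP proteins usually act beside NF-Y and Sp1. T cells need sterols for new membrane, a demand known to be high in dividing thymocytes and low in resting naive cells.

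Promoter sequences are shown because the regions at gene ends were the ones most often shared by all libraries. RefSeq windows (GRCm38.p6, the assembly of mm10) reaching from 250 bases before to 50 after a start site were held for 21 of the 27 members, in 25 windows. The pentamer CCAAT, the letters NF-Y reads, was in a window of 20 of the 21 members on either strand, against 42.7% of 17274 genes with a window. Acat2 had none, and Pmvk had it before a start that was closed in every library. In the 22 member windows whose start lay under a region in all 4 libraries, 18 held it, against 38.3% of 10842 such windows. The Sp1 letters GGGCGG were in 19 of these 22 windows, against 69.6%. The sterol element TCACNCCAC was in the Hmgcs1 window alone of the 21 members, against 1.42% of genes, and the canonical element without a free base was in none. These are matches of letters and not shown to be bound. Printed here are the 250 bases before 5 start sites, 5′ to 3′ in gene sense, with CCAAT, its reverse complement and TCACNCCAC in capitals. Hmgcs1 was set by the sterol match. The others were chosen after their values were seen: Idi1 for its tall region, Mvk for its 5 CCAAT matches, Dhcr7 for a start inside the annotated gene, and Vldlr for a region called in DN3 alone. They lie on the plus strand at chr13:119690101-119690350, chr13:8885356-8885605, chr5:114444019-114444268, chr7:143829964-143830213 and chr19:27216770-27217019.
Hmgcs1: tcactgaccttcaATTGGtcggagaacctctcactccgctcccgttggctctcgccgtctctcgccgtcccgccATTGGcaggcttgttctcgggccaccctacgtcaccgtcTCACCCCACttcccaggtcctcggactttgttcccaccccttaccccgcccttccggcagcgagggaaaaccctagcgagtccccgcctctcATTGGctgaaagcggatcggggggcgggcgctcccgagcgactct
Idi1: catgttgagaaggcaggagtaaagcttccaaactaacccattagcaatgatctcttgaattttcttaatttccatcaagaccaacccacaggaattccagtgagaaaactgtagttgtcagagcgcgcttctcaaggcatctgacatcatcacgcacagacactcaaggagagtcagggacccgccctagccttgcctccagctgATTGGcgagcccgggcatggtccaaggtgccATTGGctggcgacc
Mvk: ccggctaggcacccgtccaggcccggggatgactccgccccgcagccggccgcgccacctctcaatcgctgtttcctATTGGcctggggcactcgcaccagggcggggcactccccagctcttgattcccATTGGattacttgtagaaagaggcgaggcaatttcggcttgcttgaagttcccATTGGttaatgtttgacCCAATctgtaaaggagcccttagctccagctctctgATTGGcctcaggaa
Dhcr7: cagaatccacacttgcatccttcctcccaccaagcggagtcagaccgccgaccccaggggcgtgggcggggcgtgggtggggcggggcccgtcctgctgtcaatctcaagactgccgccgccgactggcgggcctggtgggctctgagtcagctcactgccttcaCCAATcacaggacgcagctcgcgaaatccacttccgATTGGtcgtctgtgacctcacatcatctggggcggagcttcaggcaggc
Vldlr: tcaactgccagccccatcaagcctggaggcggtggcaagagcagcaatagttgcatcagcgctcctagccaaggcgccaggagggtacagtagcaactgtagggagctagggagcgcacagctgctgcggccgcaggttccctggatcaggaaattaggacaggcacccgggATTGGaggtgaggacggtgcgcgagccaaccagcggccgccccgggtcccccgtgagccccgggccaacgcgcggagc
The sterol match of Hmgcs1 begins 137 bases before the start, between a CCAAT match at 176 and the next at 45. In Mvk the 5 matches spread from 173 to 14 bases before the start, 4 of them on the opposite strand.

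The lists held 76814 and 76437 regions in the DN3 control and Scd1-deficient libraries and 46576 and 51297 in the naive ones. Total read counts were not given. The whole number of fragments at each summit was recovered from the deposited fold and p, and the lowest background pileup, which grows with depth, was 4.72 and 4.47 fragments in DN3 and 5.12 and 3.65 in naive cells. The narrowest region was 217 and 214 bp in DN3, and 275 and 225 bp in the naive control and Scd1-deficient lists. As a check of the cell labels, 5 of 5 DN3 markers (Ptcra, Rag1, Rag2, Il2ra, Dntt) were called within 1 kb of a gene end in both DN3 lists, against 1 and 2 in the naive control and Scd1-deficient lists. All 5 naive markers, such as Cd4 and Ccr7, were called in all 4. The B cell list had 3 of 6 genes in each library, with Ms4a1 at none. The myeloid list had 3 or 4 of 6, with Csf1r at none, and of 4 erythroid genes 2 were called in each library, with both globin genes at none. Of 3 thymic epithelial genes 3 and 2 were called in DN3 and 1 in each naive list. The part of such cells in the results was not tested.

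Nearly every cholesterol gene was open at an annotated end in both cell types and both genotypes. A region lay within 1 kb of an end at 25 of the 27 members in each DN3 library, where 66.7% and 66.5% of all genes had one, and at 24 in each naive library, against 57.0% and 58.6%. Of all genes, 56.1% were called in all 4 libraries. Any region in the gene or its flanks was called for 27, 27, 26 and 26 members in the DN3 control, DN3 Scd1-deficient, naive control and naive Scd1-deficient libraries, against 79.1%, 78.9%, 70.3% and 71.8% of genes. No member's end call differed between genotypes in either cell type. Among all genes 2.02% differed in DN3 (1.11% control alone, 0.911% Scd1-deficient alone) and 2.3% in naive cells (0.37% and 1.93%). Between cell types 1 member differed in each genotype, where 11.0% of genes differed in the controls (0.624% naive alone) and 9.12% in the knockouts (0.587% naive alone). Fdft1 and Pmvk had no region at an end in any library, and Vldlr had one in DN3 alone.

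These regions were also strong within their own lists. Strength is given as the −log10 q of the summit, a measure of how far the pileup exceeds the local background, which grows with depth and is the authors' value. Among the 24 members called in all 4 libraries the median −log10 q was 303 in the DN3 control and 333 in DN3 without Scd1. Over all 12131 genes called in all 4 libraries it was 216.5 and 213. In naive cells the members reached 507.5 with Scd1 and 368 without it, where all those genes reached 335 and 284. Ranked among the 12131 genes, the members' median percentile was 75.8 and 83.0 in DN3 and 78.2 and 69.6 in naive cells, in the order control and Scd1-deficient. Of the 24, 18, 19, 19 and 18 ranked above the middle of all genes in the DN3 control, DN3 Scd1-deficient, naive control and naive Scd1-deficient libraries. The fold over local background was less apart, with member medians of 12.6, 13.2, 11.8 and 12.6 in that order against 10.8, 11.1, 11.1 and 11.9. Below, 4 values in a row follow this same order.

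**Figure D1:**
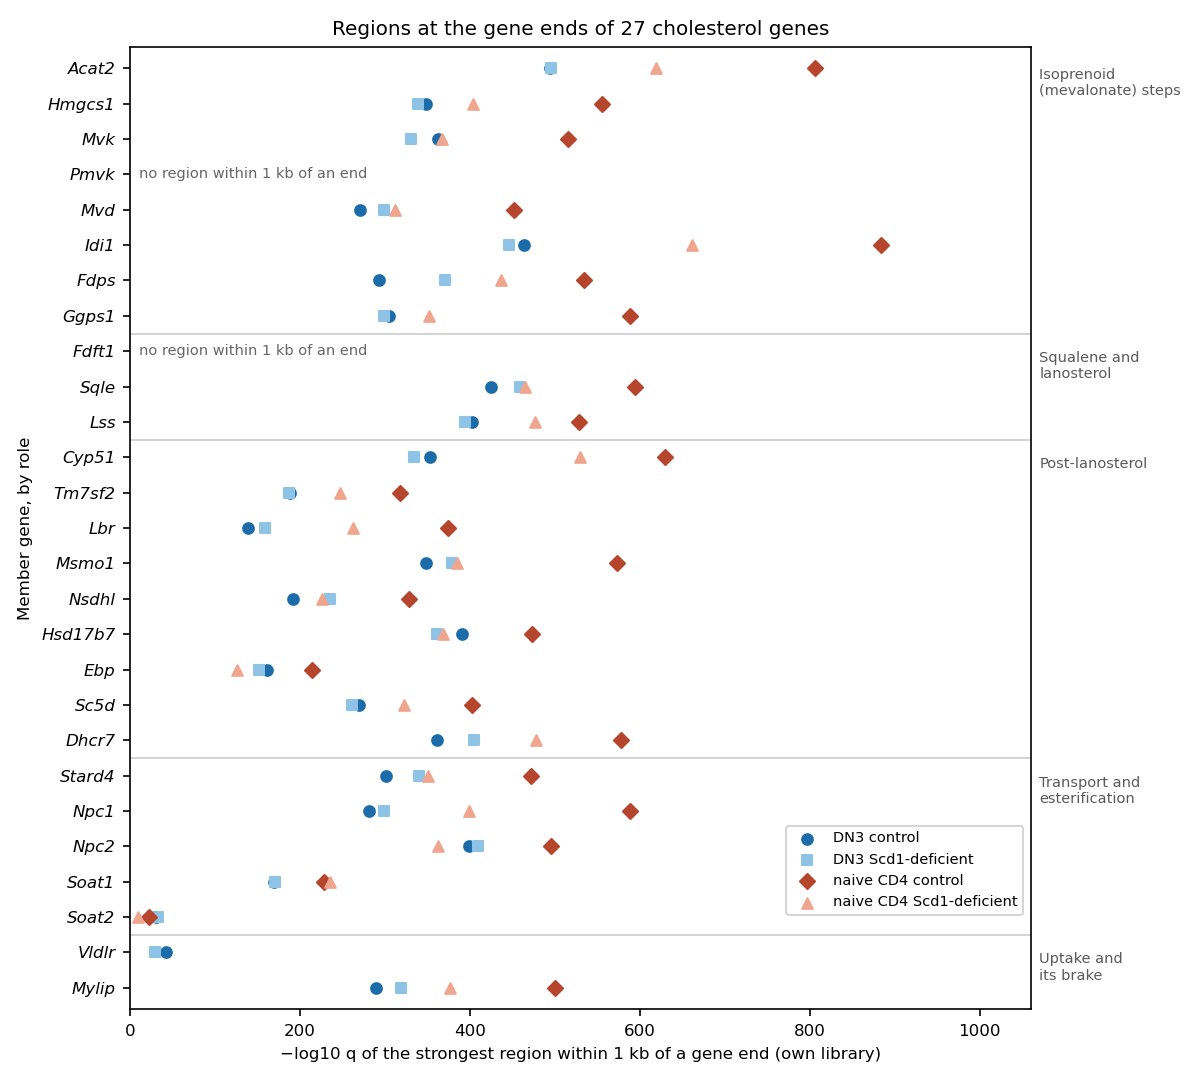
The horizontal axis gives the −log10 q of the strongest region within 1 kb of an annotated gene end in each of the 4 libraries (1 point per library), and the rows are the 27 members by role. Acat2 and Idi1 lie farthest right in the naive control at 806 and 884, Soat2 and Vldlr lie near 0, and values from different libraries share no depth.

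The highest values of single genes were in the early, mevalonate part of the route, at Idi1 and Acat2, while the median over the 7 genes called there was lower than over Sqle and Lss in all 4 libraries (349, 338.5, 555 and 404 against 414, 427, 561 and 470). Idi1, which isomerises isopentenyl diphosphate, had −log10 q of 464, 445, 884 and 662, with 619, 591, 1130 and 820 fragments at the summit. It ranked at percentiles 99.6, 98.6, 99.9 and 99.9 and had no other region within 10 kb. Acat2, the cytosolic thiolase of the first step, had 494, 496, 806 and 619 and percentiles from 99.6 to 99.9. Its neighbour Acat3 is a paralog, and how reads that match both were counted was not given in the sources used here. In both genes the naive control value was the highest and the DN3 values were close to each other.

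Hmgcs1, the HMG-CoA synthase, had 349, 338.5, 555 and 404 at its start, with folds of 12.4, 12.5, 11.7 and 12.01. Mvk, mevalonate kinase, had 362, 330.5, 515 and 367 at its start. That region also lay within 1 kb of an annotated end of Mmab, its start or far end not told apart. Mvd, the mevalonate diphosphate decarboxylase, had 271, 299, 451.5 and 312. Farnesyl and geranylgeranyl diphosphates, the lipids put on small GTPases, are made by Fdps and Ggps1. Fdps had 293, 371, 535 and 437 at its higher-coordinate end, and Ggps1 305, 299, 588 and 351.5 in a region of 2272 to 2416 bp that also touched Arid4b. Across these 7 genes the percentile was above 56 in every library, lowest for Mvd in the naive knockout at 56.1.

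Pmvk, phosphomevalonate kinase, was open inside the gene instead of at its ends. Its annotated first start on chromosome 3 at 89454541 had no region in any library, while the RefSeq start at 89459571 lay under a region of 89458631 to 89459830 in all 4. The −log10 q there was 98.9, 93.3, 165 and 170, with folds of 7.97, 7.99, 8.82 and 10.7. The other 7 mevalonate genes had 271 or more in every library at their ends.

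Squalene synthase, epoxidase and lanosterol synthase (Fdft1, Sqle and Lss) carry the route into sterols. Sqle had −log10 q of 425, 459, 594 and 464 at its lower-coordinate end, and Lss 403, 394, 528 and 476 at its start. The strongest Fdft1 region, on chromosome 14 from 63177538 to 63178564, lay inside the annotated body, toward its higher-coordinate end at 63181687. It was centred 32.9 kb from the lower-coordinate end of this 36538 bp gene, with −log10 q of 345.5, 339, 541.5 and 404. These values were below those of Sqle in all 4 libraries and above those of Lss in the naive control alone.

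The genes after lanosterol spread more widely. Cyp51, the lanosterol demethylase, had 353.5, 335, 630 and 529, and Dhcr7, the reductase of the last step, 361, 405, 578 and 478 at its start beside Nadsyn1. Msmo1 and Hsd17b7, of methyl group removal, had 348, 379, 573 and 385, and 390, 361, 473 and 368. Sc5d, the sterol desaturase, had 269, 261, 403 and 322. Cyp51 and Hsd17b7 had no other region within 10 kb in any library.

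Lower values came from Lbr, Tm7sf2, Nsdhl and Ebp. Lbr, at once a sterol reductase and the lamin B receptor of the inner nuclear membrane, had 138, 158, 374 and 263 at its start, at percentiles of 29.4, 35.9, 55.7 and 45.8. Its partner reductase Tm7sf2 had regions at both ends, with 180.5, 186, 317 and 235 over its start, shared with Vps51, and 188, 175, 300.3 and 247 beside Znhit2. Its strongest region was therefore at different ends in different libraries, and its entry in the ratios of strongest regions compares different places. The X-linked Nsdhl and Ebp had 192, 236, 329 and 225, and 161.5, 152, 214 and 125. Ebp shares its start region with Porcn, and the start region of Nsdhl lay within 1 kb of an annotated end of Cetn2.

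In sterol transport, Npc1 and Npc2, which export cholesterol from lysosomes, were strong. Npc1 had 281, 299, 589 and 398, and Npc2 399, 410, 495 and 363. The Npc2 region also lay within 1 kb of an annotated end of Isca2. Stard4, a soluble sterol carrier, had 301, 340, 472 and 350. Soat1, which esterifies cholesterol for storage, was lower at 169, 171, 228 and 235. Soat2, its relative known from gut and liver, had the lowest values among the 24 members called at an end in all 4 libraries, by the strongest end region of each, at 30.4, 33.3, 21.7 and 9.10, with 77, 79, 57 and 36 fragments and percentiles of 3.66, 5.09, 5.70 and 1.48. That region on chromosome 15 from 102150163 to 102151135 also lay within 1 kb of Igfbp6.

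Of the uptake genes, Mylip, the ubiquitin ligase that sends lipoprotein receptors to breakdown, had 289, 319, 500.2 and 377 at its start. Vldlr, a lipoprotein receptor, differed by cell type. The DN3 control had a region on chromosome 19 from 27216528 to 27219213 with −log10 q of 42.7, a fold of 4.72 and 126 fragments, and DN3 without Scd1 had 29.1, 4.17 and 98. No region was called in or within 10 kb of Vldlr in either naive library, and of the 27 members this held for Vldlr alone. A second DN3 region inside it, from 27220874 to 27221177, had 9.68 and 10.1. Among all genes, 10.3% in the controls and 8.53% in the knockouts had an end call in DN3 and none in naive cells, so 1 of 27 is under the background share.

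Away from the ends the cholesterol genes were nearer to other genes. Regions inside the body and over 1 kb from both ends were found at 12, 13, 11 and 13 members, where 44.3%, 44.2%, 32.5% and 34.6% of all genes had one. Regions in the flanks were found at 16, 18, 13 and 15 members, against 57.4%, 57.4%, 45.1% and 47.4%. Joining the regions of the 4 libraries gave 98 joint regions around the members, of which 31 were at ends, 34 in bodies and 33 in flanks. At ends 28 of 31 (90.3%, Wilson 95% interval 75.1 to 96.7) were called in all 4 libraries, against 73.1% around all genes. In bodies it was 14 of 34, against 34.5%, and in flanks 15 of 33, against 49.4%.

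Cell type differences sat mainly in bodies and flanks. Of the 98 joint regions, 15 were called in both DN3 and neither naive library, or 15.3% (9.50 to 23.7) against 26.6% around all genes, and 2 in both naive and neither DN3 library, against 4.77%. These 2 were 1 at an end (1.15% of all end regions) and 1 in a body (6.22%), with none in flanks (3.36%). Of the 15, 9 lay in bodies (30.7% of all body regions had this pattern), 5 in flanks (22.7%) and 1 at an end (15.1%). In the controls 23 of 84 DN3 regions had no naive counterpart, or 27.4%, against 44.4% around all genes. In the knockouts it was 24 of 89, against 40.6%. The reverse counts were 7 of 67 (13.8% around all genes) and 6 of 71 (14.8%). The DN3 lists are longer. With all lists kept to the 46576 strongest regions the DN3 counts became 11 of 65 and 10 of 67, against 27.1% and 25.2%.

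**Figure D2:**
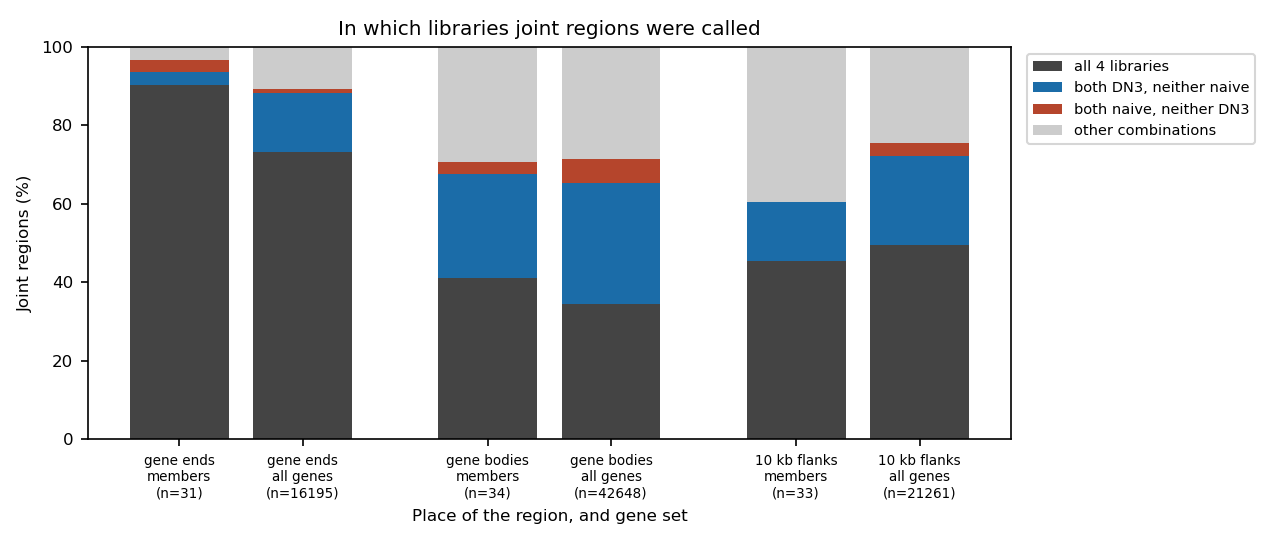
Bars show the percentage of joint regions called in all 4 libraries, in both DN3 and neither naive library, in both naive and neither DN3 library, or in other combinations, for 31, 34 and 33 member regions at gene ends, in bodies and in flanks beside those of all genes. At ends 90.3% of member regions were called in all 4 libraries against 73.1% of all such regions.

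Among the member regions called in both cell types, the one that separated them most by fold lay upstream of Hmgcs1. On chromosome 13 from 119680859 to 119681836, about 9.0 kb before the start, it had −log10 q of 168 and 179 and folds of 13.6 and 15.7 in the DN3 libraries. The naive control had none and the naive knockout a weak one with 3.88, a fold of 3.44 and 15 fragments. In the knockouts its DN3 to naive log2 ratio of folds, less the median of all flank regions, was 2.30. The start region of the same gene had folds of 12.4 and 11.7 in the DN3 and naive controls.

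Dhcr7 showed the same contrast inside the gene. A region on chromosome 7 from 143837660 to 143838459 had −log10 q of 194.5 and 199 and folds of 11.03 and 11.8 in DN3 and was absent from both naive lists. Nearer the start, the region over the internal RefSeq start of the printed Dhcr7 sequence (143829400 to 143830544) was called in all 4, with 368, 414, 715 and 451. By −log10 q it was thus no weaker than the first start region in both controls and in DN3 without Scd1. By fold it was weaker in all 4, at 11.29, 12.68, 13.35 and 12.73 against 16.06, 17.55, 16.0 and 16.57. A weak DN3 region at 143840987 to 143841341 had 15.9 and 8.30.

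The lysosomal pair also had inner regions of DN3 alone. In Npc1 a region on chromosome 18 from 12213615 to 12214230 had 61.0 and 49.6 in DN3. A shared region at 12224081 to 12225511 had −log10 q of 88.0, 92.9, 31.0 and 20.6 and folds of 7.79, 8.38, 6.21 and 6.31. At 12199291 to 12200821 the −log10 q was also lower in naive cells (147, 123, 93.9 and 79.5), while the folds were higher (12.03, 10.7, 13.4 and 14.3). That region lay within 1 kb of an annotated end of Rmc1. At 12229816 to 12230623 the naive knockout had the highest fold of 4.87, 4.40, 3.49 and 5.41. In Npc2 regions of DN3 alone lay on chromosome 12 at 84759168 to 84759440 (29.2 and 34.2) and 84767396 to 84767880 (52.7 and 62.1). The region between them, at 84762322 to 84763160, had 106, 95.9, 299 and 233 and folds of 9.06, 8.83, 11.6 and 12.4. A region near the far end of Npc2, at 84755303 to 84755851, was called in naive cells alone, with 23.1 and 19.6. Npc2 therefore had regions of each cell type within the same gene. Beyond that end, a flank region at 84750636 to 84751216 had 136, 115, 9.44 and none.

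Soat1 had the most regions, with 8, 9, 6 and 6. On chromosome 1 a region from 156446476 to 156447012 had folds of 14.8 and 11.2 in DN3 and 3.92 and 5.16 in naive cells, a centred log2 ratio of 1.86 in the controls and 1.19 in the knockouts. Its neighbours included some that went the other way. At 156459579 to 156460478 the folds were 5.90, 5.92, 9.73 and 9.82, with centred ratios of -0.78 and -0.65. At 156437302 to 156438115 the DN3 control had no region, DN3 without Scd1 had −log10 q of 13.6, and the naive libraries had 28.0 and 26.8. A flank region of 156422932 to 156423644 was called in DN3 alone, with 88.8 and 46.1.

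Weaker regions followed the same DN3 pattern at Fdft1 (chromosome 14, 63164387 to 63165419, 32.0 and 26.5), Mvd (chromosome 8, 122436207 to 122436774, 43.4 and 39.1), Fdps (14.7 and 2.55), Sc5d (4.18 and 6.48) and Mvk, which had 2 in its flank (9.81 and 8.04, 3.89 and 4.66). In the other direction, a body region of Stard4 was called in naive cells alone, with 7.64 and 5.91. Some shared regions had a higher fold in naive cells in both genotypes. A region past the end of Mvk, on chromosome 5 from 114461181 to 114462128, had folds of 8.42, 8.96, 15.9 and 18.5. Its fragments over the genome-wide background were 25.6, 28.8, 23.3 and 28.5, so the difference lay in the fold over local background. A region past the end of Sc5d, on chromosome 9 from 42249025 to 42249905, had folds of 6.42, 7.67, 13.2 and 12.4 and 8.05, 9.16, 20.7 and 19.7 fragments over that background. A region past the end of Mylip, on chromosome 13 from 45412986 to 45414523, had folds of 2.80, 4.20, 6.09 and 6.95. Over regions called in both libraries, the fold of member regions passed 1.5 times in the controls at 1 of 28 ends (10.3% of all end regions), 3 of 15 body regions (29.1%) and 7 of 17 flank regions (19.8%). In the knockouts it did so at 2 of 29 ends (10.4%), 4 of 17 body regions (28.1%) and 4 of 18 flank regions (18.8%). The 7 flank regions were 3 with a higher fold in DN3, at Npc2, Acat2 and Lbr, and 4 with a higher fold in naive cells, at Sc5d, Mylip, Soat1 and Soat2.

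**Figure D3:**
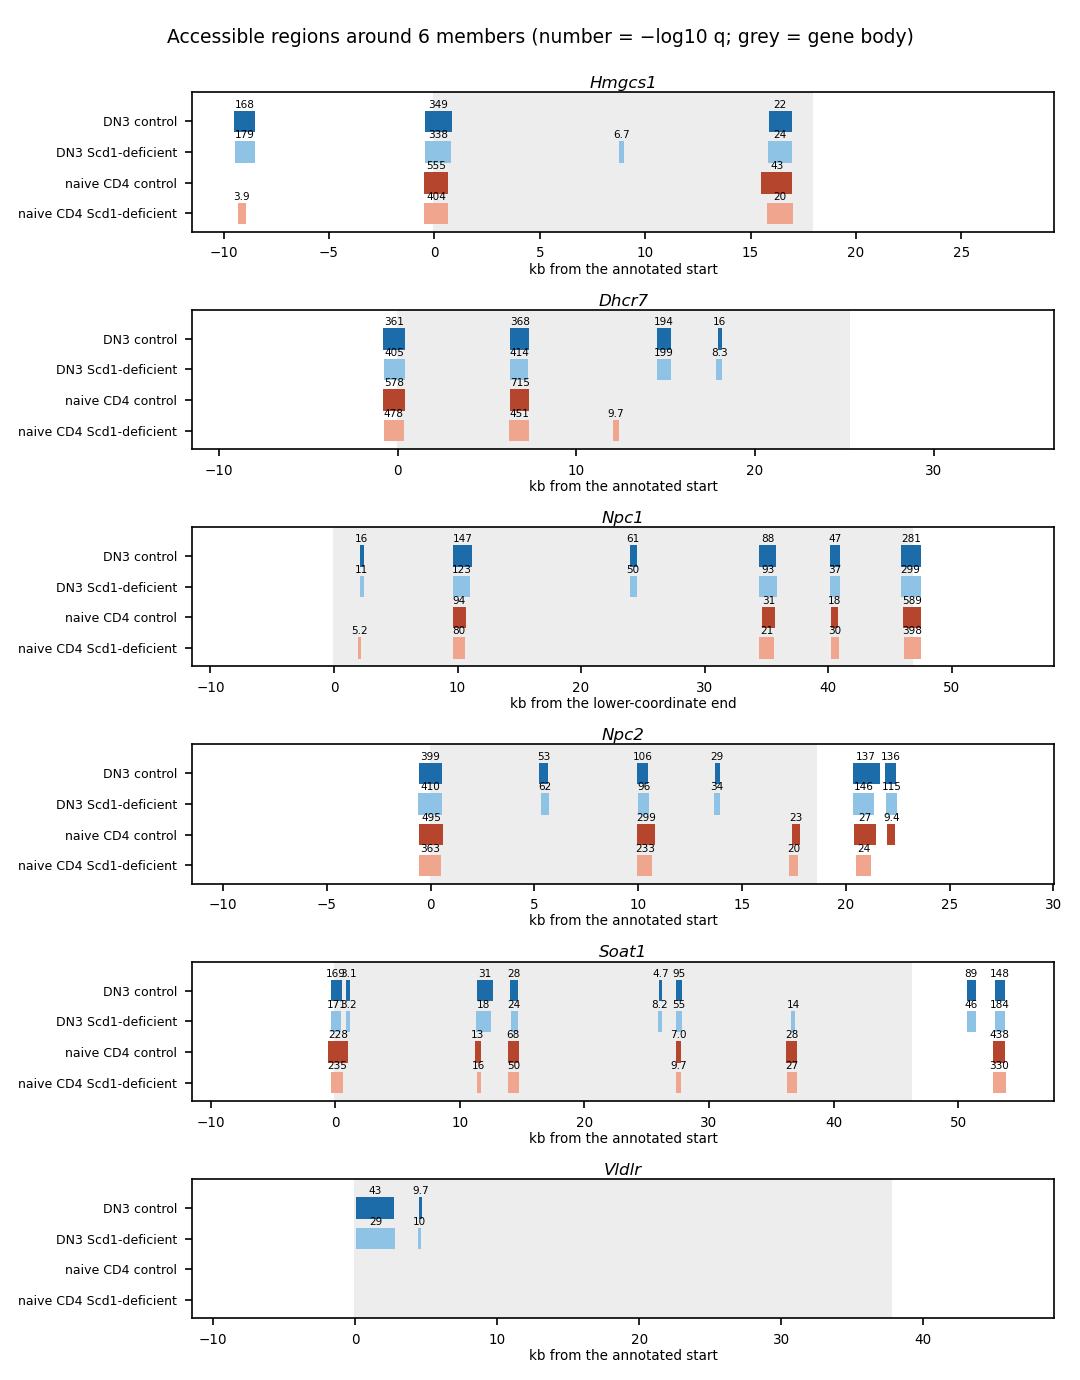
Each panel maps the called regions of 1 member in the 4 libraries against distance in kb from the annotated start, or from the lower-coordinate end for Npc1, with the gene body in grey and the −log10 q printed on each region. A region at a gene end is shared by all libraries except at Vldlr, while the Hmgcs1 region at -9.0 kb (168 and 179 in DN3) is 3.88 in 1 naive library and the inner Dhcr7 one (194.5 and 199) is in DN3 alone.

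Without Scd1 the fold at the ends of the members was close to that of the controls. Ratios of the fold are given as log2, Scd1-deficient over control, less the median over all genes (0.02 in DN3 and 0.11 in naive cells). In DN3 none of 25 members passed 1.5-fold, where 1.32% of 14196 genes did, and the members ran from -0.20 for Vldlr to 0.25 for Tm7sf2, with a median of 0.01. The Tm7sf2 value compares different places, and at its own start region the folds were 7.27 and 7.64. Fdps came next, with folds of 12.8 and 15.1, 409 and 475 fragments and a ratio of 0.21 (0.01 to 0.40). For Sqle it was 0.12 (-0.05 to 0.28), and for Vldlr -0.20 (-0.60 to 0.19).

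In naive cells 1 of 24 members passed 1.5-fold, against 1.99% of 12257 genes, and the members' median was -0.05. That was Soat2, with folds of 5.09 and 3.57 from 57 and 36 fragments, a ratio of -0.62 (-1.26 to 0.007). Without the centring it was -0.51, and by fragments over the genome-wide background -0.33, neither past 1.5-fold. No member passed with ends taken within 2 kb. There the strongest Soat2 region was another one, at 102165222 to 102166202, with −log10 q of 159, 129, 89.8 and 69.8. The Soat2 ratio above was therefore not measured again by that setting. Ggps1, with 1100 and 676 fragments, was at -0.17 (-0.31 to -0.03), and Soat1, with 332 and 302, at 0.20 (-0.03 to 0.43). Between cell types 0 of 24 members passed in the controls, against 8.5% of genes, and 1 in the knockouts, against 8.54%. It was again Soat2, with a DN3 to naive ratio of 0.78 (0.19 to 1.39) in the knockouts against 0.095 (-0.42 to 0.61) in the controls. By fragments over the genome-wide background the ratio was past 1.5-fold in both genotypes, at 1.40 in the knockouts and 1.04 in the controls. By that measure 20.4% and 22.2% of genes passed. Soat2 passed in neither with ends taken within 2 kb, where that other region was compared instead. The Soat2 fold calls in both comparisons rest on the same 36 fragments of the naive knockout.

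**Figure D4:**
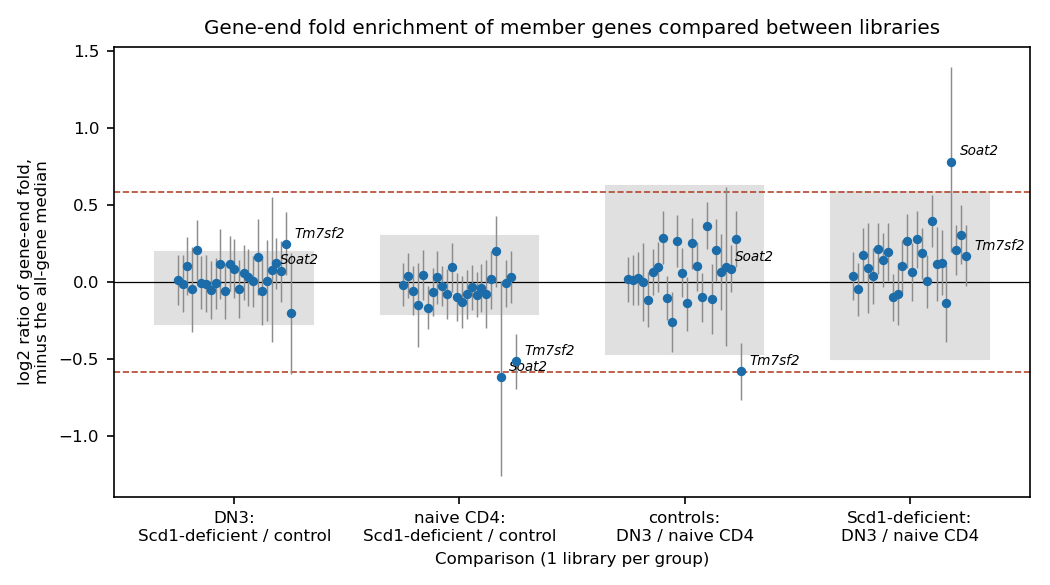
Points are members, with the log2 ratio of the gene-end fold between 2 libraries less the median of all genes on the vertical axis; bars are 95% counting intervals, grey boxes hold the middle 90% of all genes and dashed lines mark 1.5-fold. Soat2 lies past a line in naive cells (-0.62) and between cell types in the knockouts (0.78), and Tm7sf2 compares different ends of the gene in all 4 comparisons.

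Regions called in one genotype alone, at ends, in bodies or in flanks, had a −log10 q of at most 19.8. In DN3 3 of 84 control regions had no knockout counterpart, or 3.57% (1.22 to 9.98), against 9.83% around all genes, and 7 of 89 knockout regions had no control counterpart, or 7.87% (3.86 to 15.4), against 9.01%. The control-alone regions lay near Mylip (−log10 q of 15.5), Sc5d (6.98) and Soat2 (1.45). Those of the knockout lay at Msmo1 (19.7), Soat1 (13.6), Acat2 (13.3), Mvk (7.73), Hmgcs1 (6.68), Mvd (4.95) and Nsdhl (4.71). The Msmo1 region, on chromosome 8 from 64723193 to 64723479, had a fold of 6.94 on 37 fragments and was called in no other library. The Acat2 region, at the far end of the gene, was called in both naive libraries too (14.5 and 8.81), as was the Soat1 region.

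In naive cells 6 of 67 control regions lacked a counterpart, or 8.96% (4.17 to 18.2), against 5.63% around all genes, and 9 of 71 knockout regions, or 12.7% (6.81 to 22.4), against 11.9%. The control-alone regions lay at Npc2 (9.44), Lbr (8.43 and 2.48), Fdft1 (6.29), Mylip (4.42) and Ggps1 (1.79). The knockout-alone ones lay at Fdps (19.8), Soat2 (12.9), Dhcr7 (9.72), Sqle (8.15), Sc5d (5.79), Npc1 (5.21), Lbr (4.51), Hmgcs1 (3.88) and Msmo1 (3.25). Those of Fdps, Sqle, Npc1, Lbr and Hmgcs1 lay where both DN3 libraries had a region, with for example 38.3 and 27.5 at the Sqle one, on chromosome 15 from 59306531 to 59307136. The regions of Fdps, Lbr and Npc1 were 269, 258 and 231 bp wide, narrower than any region of the naive control list. No region around a member was called in both knockouts and neither control, or in both controls and neither knockout. A count of 0 of 98 allows a share of up to 3.06%, and around all genes the shares were 0.391% and 0.167%. Msmo1 and Hmgcs1 had knockout-alone regions in both cell types, at different places, and the Soat2 region of the naive knockout was also the weak one of the DN3 control. Over regions called in both genotypes, the fold passed 1.5 times in DN3 at 0 of 29 ends (0.906% of all end regions), 0 of 26 body regions (2.35%) and 2 of 25 flank regions (1.71%). These were Mylip, from 2.80 to 4.20 on 15 and 22 fragments, and Fdps, from 4.46 to 2.17 on 44 and 27. In naive cells it did so at 1 of 30 ends (Soat2, 1.95%), 0 of 16 body regions (4.24%) and 1 of 15 flank regions (3.22%), beyond Acat2, from 5.56 to 9.69 on 33 and 45 fragments.

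A second list, written with the members in mind and with earlier results of these data known, holds 20 further genes of the pathway, among them Srebf2, the master switch, its escort Scap, its retention factors Insig1 and Insig2, and the exporter Abca1. At their ends 19 of 20 had a region in every library, against 66.7%, 66.5%, 57.0% and 58.6% of all genes. None of the 20 differed between genotypes, where 2.02% of genes did in DN3 and 2.3% in naive cells. None differed between cell types, where 11.0% did in the controls and 9.12% in the knockouts. Insig2 had no end region in any library. Srebf2 had −log10 q of 352, 357, 473 and 361, and Abca1 111, 105, 208 and 218.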

How the data were processed

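ATAC-seq of 4 libraries was used, 1 per genotype and cell type. The submitters' processing notes name Trimmomatic, BWA, MACS2 and mm10, while versions, settings and how duplicate or shifted reads were handled was not given in the sources used here. Per sample, the authors deposited 1 peak list. The deposited fold is a ratio of the summit pileup to the local background, the deposited −log10 p and −log10 q belong to the summit within its library, and the deposited score is 10 times the latter. These are the authors' values. The deposited summit offset was used for distances.

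Gene positions came from a RefSeq table of GRCm38.p6 without exons, so exon and intron are not told apart. Strand came from the promoter windows. Fragments at summits came out whole within 0.05 in 100% of regions. The strongest gene-end region is that with the highest −log10 q. Regions were shared when 1 bp overlapped, or joined over the 4 lists. Wilson intervals for shares and exact conditional intervals for ratios of fragments are at 95%; PCR duplicates may be among the fragments. The members, the lists and the tests were chosen with earlier results of these data known. By the rule for naming, members with differing end calls, regions without a counterpart, over 1.5-fold ratios or extreme strength are given by value, and the rest by role. The scripts used Python 3.11.15, pandas 2.3.3, NumPy 2.4.6 and SciPy 1.17.1. They were checked on simulated fold and p values and on the DN3 control list with regions removed or folds raised. Alternatives covered distances, windows, overlap, −log10 q of at least 5, list length, centring and the height measure.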

Additional observations from a re-analysis of the deposited data

How the results depend on the processing

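No paired analysis was possible because each group has 1 library and no test was run. Of 88 alternative values, 60 stayed within 1.5 times the main count, among them all counts of members with an end region (24 to 26) and of members whose end call differs. The others are counts of regions without a counterpart, or of members past 1.5-fold. Percentages in brackets after the counts of regions that follow are the shares around all genes. DN3 control regions missing from the knockout list numbered 1 of 54 in gene bodies alone (9.42%) and 20 of 219 with 50 kb flanks (10.1%). When at least 50% of a region had to overlap they numbered 5 of 84 (12.8%). The reverse count was 4 of 58 in bodies (8.54%), 20 of 224 with 50 kb (9.28%) and, at equal list length, 3 of 67 (5.93%). Naive control regions missing from the knockout list numbered 2 of 45 in bodies (5.32%) and 12 of 140 with 50 kb (5.57%). At a −log10 q of at least 5 they numbered 3 of 64 (3.62%). The reverse count was 5 of 49 in bodies (11.2%), 18 of 151 with 50 kb (12.3%) and 4 of 65 at equal length (7.39%). Naive control regions missing from the DN3 control numbered 14 of 140 with 50 kb (14.2%) and 13 of 67 at equal length (28.0%). Naive knockout regions missing from the DN3 knockout numbered 11 of 151 with 50 kb (15.3%). DN3 regions missing from naive cells in the controls numbered 13 of 54 in bodies (43.6%), 89 of 219 with 50 kb (45.8%) and 11 of 65 at equal length (27.1%). In the knockouts they numbered 14 of 58 (40.0%), 83 of 224 (41.8%) and 10 of 67 (25.2%). The wider or narrower windows hold more or fewer regions by construction. Members past 1.5-fold between naive genotypes were 0, not 1, without centring (2.55% of genes), by fragments over background (3.7%) and with ends within 2 kb (2.33%). Between cell types in the controls they were 1 without centring (Tm7sf2, against 8.5% of genes) and 1 within 2 kb (Tm7sf2, against 8.79%). By fragments they were 2 (Lbr and Soat2), against 22.2% of genes. In the knockouts they were 0 within 2 kb, against 8.69%. For Soat2 the 2 kb setting took a different, stronger region, so it did not measure the same ratio again. Low fragment counts limit Soat2 and the weak regions named.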

Other observations

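The start region of Mylip was called as a single region in both controls, 2681 bp wide in DN3 and 2885 bp in naive cells, and as 2 regions in both knockouts, the main one 1723 and 1461 bp wide and the second with −log10 q of 23.6 and 56.0. Of 11841 gene-end joint regions called in all 4 libraries, 47 (0.397%) had this form and 0 the opposite one. The narrowest region of a list was 217 and 214 bp in DN3 and 275 and 225 bp in naive cells, in the order control and knockout, and its part in this was not tested.

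The members on the X chromosome had low summits. Fragments over the genome-wide background were 48.3, 48.3, 59.0 and 48.5 at Ebp and 54.4, 66.2, 82.9 and 78.0 at Nsdhl, in the order DN3 control, DN3 Scd1-deficient, naive control and naive Scd1-deficient. The 22 autosomal members called in all libraries had medians of 104, 107, 147 and 157. Over all genes the medians were 40.0, 42.0, 61.5 and 63.5 for 356 X-linked genes and 71.4, 73.1, 101 and 115 for 11775 autosomal ones.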
